A study of Mus musculus with 20 samples.

Results

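JAK-STAT signalling and its SOCS inhibitors were followed through 9 genes, Il6ra, Il6st, Stat3, Stat5a, Stat5b, Socs1, Socs2, Socs3 and Cish, taken by symbol from the 50559 genes counted in mouse liver tumors and control livers. All 9 were found in both deposited count tables, and 8 of them passed the filter on low counts that 14333 genes passed. RNA was sequenced from 20 libraries of 20 mice, 5 in each of 4 groups, namely tumors driven by MYC with Aldafermin, by MYC with FGF19 or by MYC with sgTrp53, and control livers. All mice were wild-type C57BL/6J females, and injections were made in young adults. Livers were harvested at signs of tumors or at a set endpoint, so time since injection can differ between groups. Such a difference cannot be told apart from the groups. Plasmids were delivered to hepatocytes by hydrodynamic gene transfer, a rapid tail vein injection that reaches only part of these cells, with the SB100X transposase for integration. MYC was expressed from pT3-EF1a-MYC in all 3 tumor groups. The second plasmid encoded human FGF19, or its analog Aldafermin, or, in LentiCRISPRv2, Cas9 with a guide against Trp53. Each tumor library came from an individual tumor of its own mouse. Tumors of MYC alone were not analysed here. The control livers are called non treated by the labels, whereas the methods describe transfection with an RFP plasmid. The treatment field of the sgTrp53 + MYC libraries reads none, and their group was taken from the titles.

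Cytokines of the IL-6 family bind receptors that share the chain gp130, encoded by Il6st, and IL-6 itself needs its own receptor chain, encoded by Il6ra. JAK kinases bound to these chains phosphorylate STAT factors, which enter the nucleus. In the liver, STAT3 drives the acute phase response, while growth hormone acts through STAT5A and STAT5B. Both induce SOCS genes, whose products bind receptors or JAK kinases and close the loop. FGF19, an intestinal hormone that lowers bile acid synthesis, signals through FGFR4, and Aldafermin, which carries a changed N-terminus, has been described as lacking STAT3 activation. Messenger RNA does not show phosphorylation, so these values describe how much of each component was transcribed and not whether a STAT factor was active.

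Cish and Socs3 carry the palindrome TTCNNNGAA, the core letters that STAT factors recognise, in their RefSeq promoter window of 250 bases before to 50 after the start. Of the 8 members with a window, these were the only 2 with a match. Socs1, also a feedback inhibitor, had none, nor had Il6ra, Il6st, Stat3, Stat5a or Stat5b. The stretches of Cish and Socs3, feedback targets of STAT5 and STAT3, are shown because they hold a match. They run 5′ to 3′ along the gene, with the motif in capitals, at chr9:107173853-107173882 (plus strand) and chr11:117860327-117860356 (minus strand) of GRCm39, to which the windows of the RefSeq table (GRCm38.p6) were matched by sequence, 1 match each.
Cish: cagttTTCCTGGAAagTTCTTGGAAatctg
Socs3: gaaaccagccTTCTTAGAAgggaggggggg
In Cish the 2 copies began at positions 1 and 12, with the start counted as 1. The copy in Socs3 began at position -154 from it. Windows were held for 8 of the 9 members (10 windows, since Stat5a and Stat5b have 2 each), and none for Socs2. Searched on both strands, which the palindrome makes equal, the motif was in 2726 of all 32851 windows (8.3%), and at least 2 copies were in 150 of them (0.457%). A match describes letters and shows no binding.

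Depth was 18004977 to 44427184 gene reads per library in the table that holds the FGF19, Aldafermin and liver libraries, and 54042455 to 66354724 in the table of the sgTrp53 + MYC libraries alone. The share of ambiguous reads was 11.1% to 14.6% in that table and 3.03% to 6.30% in the other, so a difference between tables and a difference between sgTrp53 + MYC tumors and the rest cannot be told apart. Trp53 itself was at 46.8 ± 22.6 CPM (SD, n = 5) in sgTrp53 + MYC tumors, 138 ± 32.5 CPM (SD, n = 5) in Aldafermin + MYC tumors and 140 ± 17.9 CPM (SD, n = 5) in FGF19 + MYC tumors. In livers, which carry no guide, it was at 32.8 ± 2.98 CPM (SD, n = 5), so the level of this transcript does not check the edit. Levels are given in CPM, the counts of a gene relative to the TMM-scaled library size. Differences are log2 fold changes from edgeR's quasi-likelihood test, with p-values adjusted by the Benjamini-Hochberg method over the 14333 genes and a threshold of 0.05.

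The labelled tissue was checked with 6 hepatocyte markers. Their summed level was 172648 to 221680 CPM in livers and 3308 to 27019 CPM in tumors, and 6 of 6 were lower in both kinds of tumor than in liver. The sum of 5 endothelial markers was 214 to 321 CPM in livers and 47.5 to 167 CPM in tumors. Of these, 3 of 5 were lower in each comparison with liver. Mean Pecam1 was 29.1 CPM in livers and 33.2 (Aldafermin), 28.0 (FGF19) and 20.9 CPM (sgTrp53) in tumors. Mean Cdh5 was 39.9 CPM in livers and 41.6, 43.2 and 26.1 CPM in tumors in the same order. The sum of 6 macrophage and Kupffer cell markers was 258 to 382 CPM in livers and 55.5 to 305 CPM in tumors. For the mean of Aldafermin + MYC and FGF19 + MYC tumors, 3 of 6 were lower than in liver and 1 was higher. In sgTrp53 + MYC tumors 5 of 6 were lower and 1 was higher. Mean Clec4f was 166 CPM in livers and 8.06 (Aldafermin), 22.5 (FGF19) and 7.06 CPM (sgTrp53) in tumors. Mean Cd68 went the other way, from 16.9 CPM in livers to 79.1, 49.6 and 36.6 CPM in the same order. These shifts accompany every liver comparison below, and their part in the results was not tested. In bulk tissue, fewer cells of a type and less RNA per cell cannot be told apart.

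**Figure D1:**
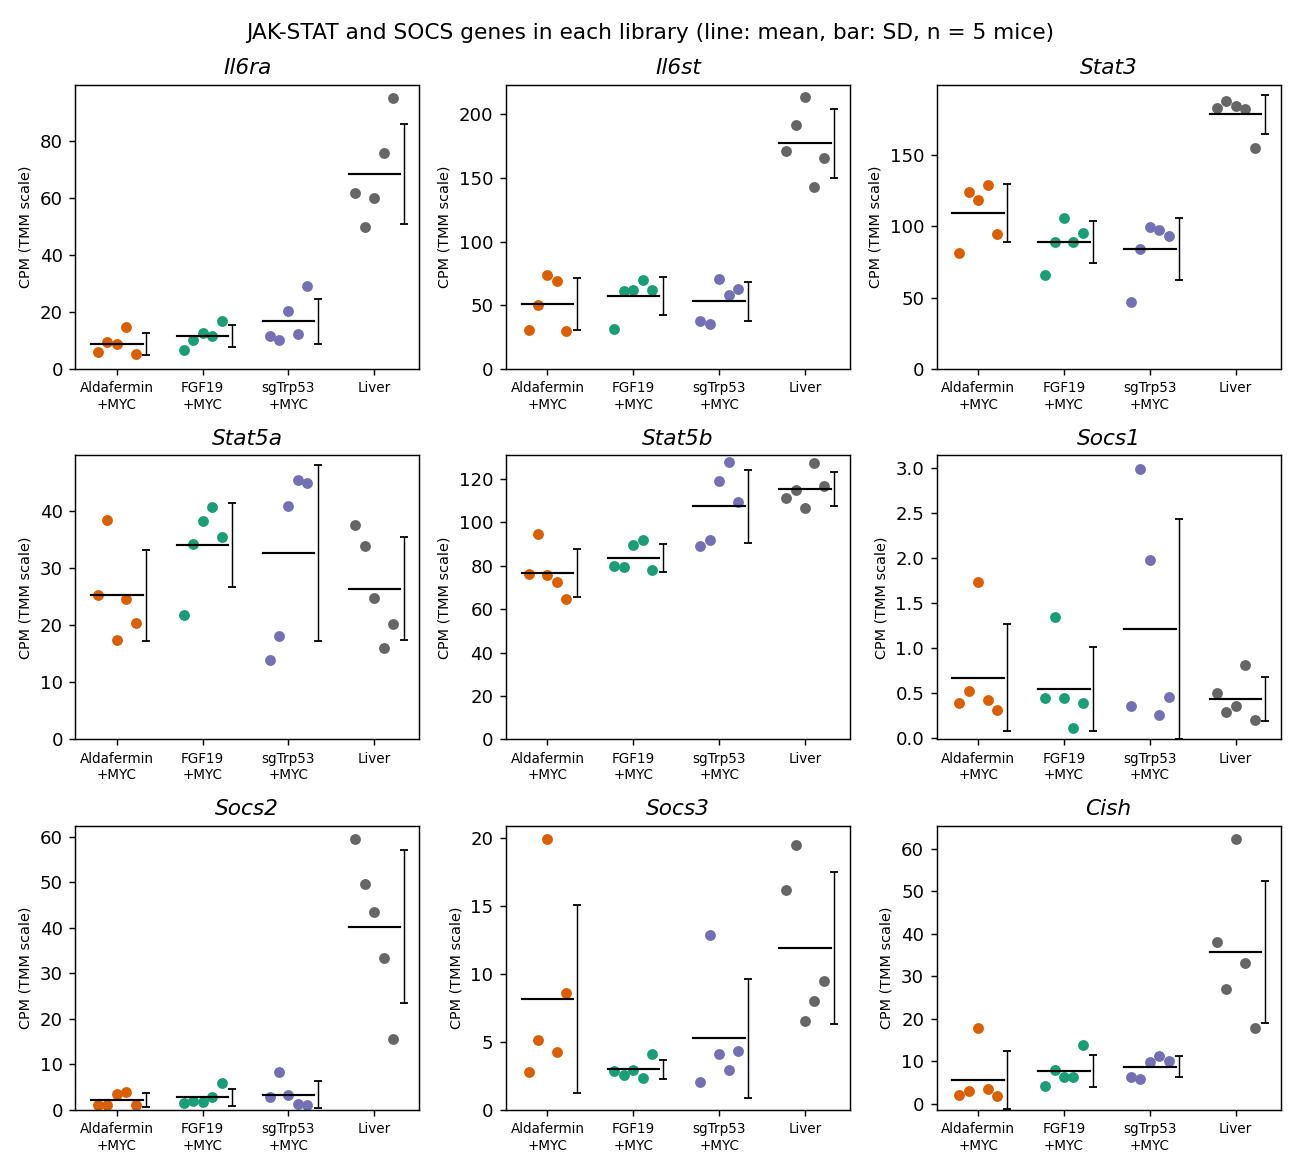
CPM on the TMM scale of the 9 genes in each of the 20 libraries, by group; points are mice, the line is the mean and the bar the SD (n = 5). All 15 tumors lie below the lowest liver for Il6ra, Il6st, Stat3 and Socs2 on this scale, while the groups overlap for Stat5a and Socs1.

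The receptor chains were both lower in tumors. Il6ra, the IL-6 binding chain, was at 61.5, 49.8, 60.0, 75.5 and 94.99 CPM in the 5 livers. It was at 5.95, 9.28, 8.67, 14.8 and 5.14 CPM in Aldafermin + MYC tumors and at 6.47, 9.94, 12.7, 11.4 and 16.9 CPM in FGF19 + MYC tumors. The sgTrp53 + MYC tumors were at 11.5, 10.03, 20.1, 12.3 and 29.1 CPM. No tumor of any group reached the lowest liver, and the 3 tumor groups overlapped one another. Taking the mean of Aldafermin + MYC and FGF19 + MYC tumors (together the FGF tumors), Il6ra was 6.82-fold lower than in liver (log2 fold change -2.77, SE 0.27, adjusted p = 1.75e-08, edgeR). Its level in sgTrp53 + MYC tumors was 4.11-fold lower (-2.04, SE 0.33, adjusted p = 1.92e-05, edgeR).

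Il6st encodes the signal-transducing chain gp130. Its livers were at 171, 192, 214, 143 and 166 CPM. Aldafermin + MYC tumors were at 30.8, 50.4, 73.8, 69.0 and 29.8 CPM, FGF19 + MYC tumors at 31.3, 61.2, 62.3, 69.6 and 61.8 CPM, and sgTrp53 + MYC tumors at 37.9, 35.5, 70.9, 58.3 and 62.3 CPM. All 15 tumors were below all 5 livers and the tumor groups spanned nearly the same range. The fall was 3.28-fold in FGF tumors (-1.72, SE 0.22, adjusted p = 9.77e-07, edgeR) and 3.34-fold in sgTrp53 + MYC tumors (-1.74, SE 0.27, adjusted p = 1.40e-05, edgeR). Per kilobase of exon, Il6st exceeded Il6ra by a ratio of 1.58 ± 0.544 in livers, 1.97 ± 0.523 in tumors with sgTrp53, 2.93 ± 0.595 in those with FGF19 and 3.38 ± 0.860 in those with Aldafermin (SD, n = 5). This ratio is taken within a library and does not depend on scaling. The liver ratios (0.996 to 2.20) lay below all of those of Aldafermin + MYC tumors (2.66 to 4.86), whereas they overlapped those of FGF19 + MYC tumors (2.09 to 3.51).

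Among the STAT factors, Stat3 was lower in both kinds of tumor, Stat5b in the FGF tumors, and Stat5a in neither. Stat3, the main mediator of IL-6 in hepatocytes, was at 183, 188, 185, 182 and 155 CPM in livers. It was at 81.3, 124, 118, 129 and 94.8 CPM in Aldafermin + MYC tumors and at 65.7, 89.1, 106, 89.2 and 95.5 CPM in FGF19 + MYC tumors. The sgTrp53 + MYC tumors were at 46.8, 84.1, 99.3, 97.1 and 93.1 CPM. No tumor reached the lowest liver. Stat3 was 1.81-fold lower in FGF tumors than in liver (-0.85, SE 0.15, adjusted p = 5.2e-05, edgeR) and 2.12-fold lower in sgTrp53 + MYC tumors (-1.09, SE 0.18, adjusted p = 3.17e-05, edgeR).

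Stat5b, which carries most of the growth hormone response of hepatocytes, was called lower in FGF tumors than in either other group on the TMM scale. It overlapped between the tumor types. Livers were at 111, 115, 107, 127 and 117 CPM and sgTrp53 + MYC tumors at 89.0, 91.8, 119, 128 and 109 CPM. Aldafermin + MYC tumors were at 76.1, 94.9, 75.6, 72.4 and 64.8 CPM and FGF19 + MYC tumors at 79.8, 79.5, 89.5, 92.1 and 78.3 CPM. All 10 FGF tumors were below the lowest liver, while the 2 lowest sgTrp53 + MYC tumors fell within the range of the FGF tumors. The difference from liver was a 1.44-fold reduction in FGF tumors (-0.52, SE 0.10, adjusted p = 0.000132, edgeR), against -0.10 (95% interval -0.36 to 0.15, adjusted p = 0.457, edgeR) in sgTrp53 + MYC tumors.

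Stat5a, the close relative of Stat5b, showed no such order. It was at 37.5, 33.8, 24.7, 15.9 and 20.2 CPM in livers and at 25.3, 38.4, 17.3, 24.6 and 20.4 CPM in Aldafermin + MYC tumors. It was at 21.7, 34.2, 38.3, 40.6 and 35.4 CPM in FGF19 + MYC tumors and at 13.9, 18.2, 40.9, 45.4 and 45.0 CPM in sgTrp53 + MYC tumors. Within the sgTrp53 + MYC group, replicates 3, 4 and 5 stood above the highest liver and replicates 1 and 2 near the lowest. The difference from liver was 0.15 in FGF tumors (95% interval -0.43 to 0.73) and 0.31 in sgTrp53 + MYC tumors (95% interval -0.36 to 0.97), and neither passed the threshold. Stat3, Stat5a and Stat5b are neighbors on chromosome 11 (GRCm39), at 100775924 to 100830450, 100750177 to 100776065 and 100671556 to 100741589. The ends of Stat3 and Stat5a overlap by 142 exonic bases on opposite strands, and the strand setting of the counting is not given in the sources used here. Stat5a and Stat5b are close paralogs, and how reads that match both were counted is likewise not given.

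Of the feedback inhibitors, Socs2, Cish and Socs3 were lower in both kinds of tumor than in liver. Socs2, an inhibitor of growth hormone signalling induced through STAT5, was at 59.5, 49.6, 43.5, 33.5 and 15.5 CPM in livers. It was at 0.996, 0.992, 3.44, 4.00 and 0.982 CPM in Aldafermin + MYC tumors and at 1.56, 1.86, 1.62, 2.82 and 5.90 CPM in FGF19 + MYC tumors. The sgTrp53 + MYC tumors were at 2.73, 8.21, 3.34, 1.25 and 1.15 CPM. Every tumor was below the lowest liver, although the livers themselves ranged widely. Socs2 was 16.8-fold lower in FGF tumors (-4.07, SE 0.48, adjusted p = 2.61e-07, edgeR) and 12.04-fold lower in sgTrp53 + MYC tumors (-3.59, SE 0.61, adjusted p = 3.24e-05, edgeR). Without sgTrp53 + MYC replicate 2, the second value was -4.24.

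Cish, the founding member of the family and a STAT5 target, was at 38.0, 27.1, 62.2, 33.2 and 17.9 CPM in livers. Aldafermin + MYC tumors were at 2.04, 3.15, 17.9, 3.54 and 1.88 CPM, FGF19 + MYC tumors at 4.19, 7.90, 6.37, 6.31 and 13.8 CPM, and sgTrp53 + MYC tumors at 6.33, 5.92, 9.92, 11.3 and 10.2 CPM. Only Aldafermin + MYC replicate 3 reached the lowest liver, and 14 of 15 tumors were below it. Cish was 5.37-fold lower in FGF tumors (-2.42, SE 0.43, adjusted p = 4.67e-05, edgeR) and 4.09-fold lower in sgTrp53 + MYC tumors (-2.03, SE 0.53, adjusted p = 0.00225, edgeR).

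Socs3, the STAT3-induced inhibitor that binds gp130, was at 16.1, 19.5, 6.54, 7.99 and 9.44 CPM in livers. Aldafermin + MYC tumors were at 2.79, 5.16, 19.9, 4.23 and 8.61 CPM, FGF19 + MYC tumors at 2.85, 2.55, 2.96, 2.35 and 4.11 CPM, and sgTrp53 + MYC tumors at 2.08, 12.9, 4.07, 2.93 and 4.34 CPM. FGF19 + MYC tumors were all below the lowest liver, whereas 2 Aldafermin + MYC tumors and 1 sgTrp53 + MYC tumor did not. Socs3 was lower in FGF tumors than in liver (-1.28, SE 0.43, adjusted p = 0.0114, edgeR), a call that was lost without liver replicate 2 (-1.03, adjusted p = 0.0525, edgeR) and with Aldafermin + MYC as the only FGF group (-0.55, adjusted p = 0.345, edgeR). With FGF19 + MYC as the only FGF group the value was -2.01 (adjusted p = 0.00244, edgeR). In sgTrp53 + MYC tumors the difference just passed (-1.18, SE 0.51, adjusted p = 0.0476, edgeR), was -1.83 without sgTrp53 + MYC replicate 2, and missed the threshold in 17 of 29 alternatives.

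Socs1, an inhibitor that binds JAK kinases and is best known for restraining interferon signalling, did not pass the filter. Livers were at 0.502, 0.293, 0.353, 0.819 and 0.199 CPM and Aldafermin + MYC tumors at 0.389, 0.521, 1.73, 0.423 and 0.309 CPM. FGF19 + MYC tumors were at 0.447, 1.35, 0.449, 0.117 and 0.387 CPM and sgTrp53 + MYC tumors at 0.362, 2.99, 1.98, 0.259 and 0.460 CPM. These levels rest on 4 to 214 counts per library, and all 4 groups overlapped. In the fit without a filter, Socs1 in sgTrp53 + MYC tumors against liver was at 1.80 (adjusted p = 0.0483, edgeR), and with at least 10 counts in every library of a group at 1.54 (adjusted p = 0.0694, edgeR). Annotated lncRNAs lie antisense to all 9 members except Stat5b, and with the strand setting unknown, reads of these transcripts cannot be told apart from those of the members.

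Against liver, 7 of the 8 tested members were lower in FGF tumors and none was higher, where 73.7% of all genes tested were called, 39.2% higher and 34.5% lower. In sgTrp53 + MYC tumors 6 of 8 were lower, where 69.9% were called, 36.9% higher and 33% lower. At an unadjusted p under 0.05 the members were the same in number, 7 and 6 of 8, and the genes 75.5% and 72.1%. Groups did not overlap for 5 of 8 members in each comparison, against 54.2% and 56.2% of all genes. The median of the members was -1.50 in FGF tumors and -1.46 in sgTrp53 + MYC tumors, beside 0.10 and 0.07 for all genes tested. The 2 comparisons share the 5 livers and are no independent support for each other.

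The size of these differences depends on scaling. Scaling by library size alone moved the median of all genes against liver by 0.85 in FGF tumors and 0.88 in sgTrp53 + MYC tumors, and the share of calls that were higher went from 53.2% to 76.9% and from 52.8% to 77.9%. On that scale Il6ra (-1.90 and -1.13), Il6st (-0.85 and -0.84) and Socs2 (-3.21 and -2.71) were still lower in FGF and sgTrp53 + MYC tumors, as was Cish in FGF tumors (-1.56). Stat3 then stood at 0.00 and -0.18, Socs3 at -0.41 and -0.27 and Cish in sgTrp53 + MYC tumors at -1.15, none of them past the threshold, while Stat5b (0.33 and 0.79) and Stat5a (1.00 and 1.22) were called higher. The reductions of Stat3, Stat5b and Socs3 are therefore reductions relative to the median gene.

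**Figure D2:**
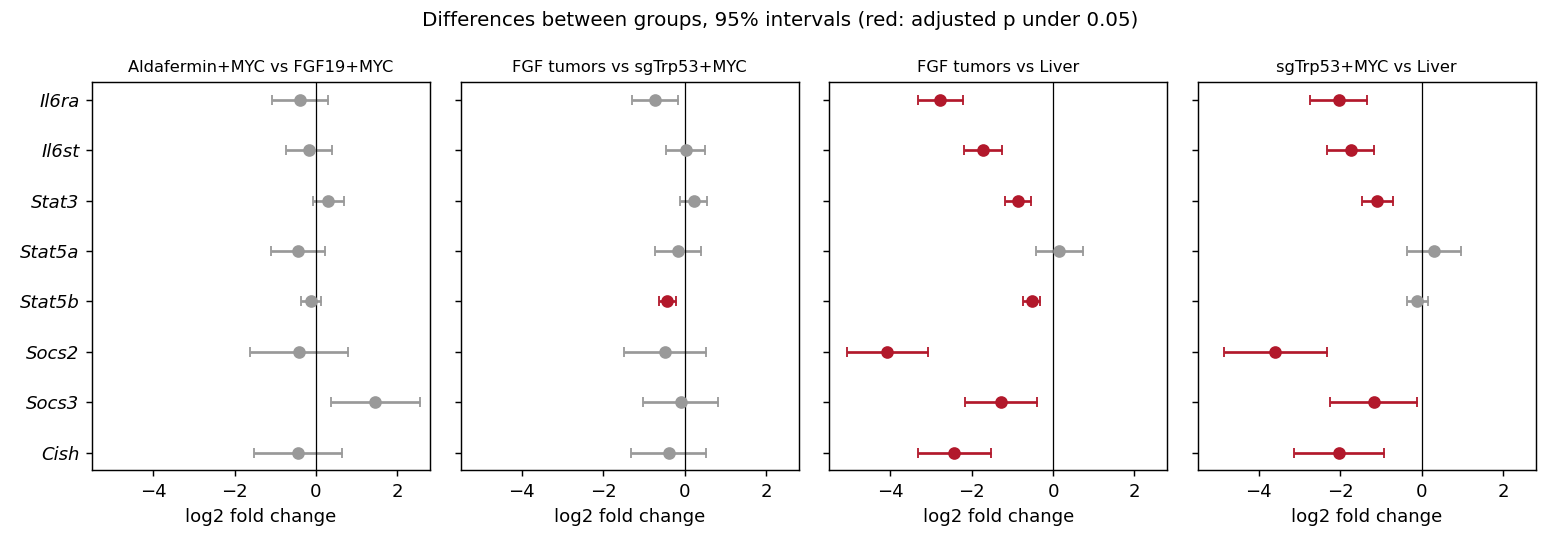
Log2 fold change with its 95% interval for the 8 members that passed the filter, in each of the 4 comparisons; red marks an adjusted p under 0.05. Against liver 7 and 6 members were lower. With library size alone Stat3 and Socs3 were not called in either comparison with liver, nor was Cish in sgTrp53 + MYC tumors. On that scale Stat5a and Stat5b were called higher in both. Between tumor types Stat5b was the member called, and between Aldafermin + MYC and FGF19 + MYC tumors none was called.

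Whether the analog and the hormone differed was asked of the same genes. No member passed the threshold between Aldafermin + MYC and FGF19 + MYC tumors (0 of 8, with 0% of 14333 genes called by edgeR's quasi-likelihood test). At an unadjusted p under 0.05 it was 1 of 8 members and 7.31% of genes, and the groups overlapped for all 8 members, where 1.46% of genes did not overlap. No member was called by DESeq2, which called 96 genes in all, or by edgeR's likelihood ratio test, which called 59. For Stat3 the difference was 0.30 (95% interval -0.08 to 0.68), so that Stat3 in Aldafermin + MYC tumors lay between 0.944-fold and 1.60-fold of its level in FGF19 + MYC tumors. The interval was narrower for Stat5b (-0.13, -0.38 to 0.13) and wider for Il6st (-0.17, -0.73 to 0.39), Il6ra (-0.39, -1.07 to 0.28) and Stat5a (-0.44, -1.10 to 0.23).

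The inhibitors left the widest intervals. Socs2 differed by -0.42 (-1.62 to 0.78) and Cish by -0.44 (-1.53 to 0.65). Socs3 was the member that passed without adjustment, at 1.46 (SE 0.52, interval 0.36 to 2.55, adjusted p = 0.462, edgeR), and the groups overlapped. Without Aldafermin + MYC replicate 3, Socs3 differed by 0.81 (adjusted p = 0.885, edgeR) and Cish by -1.55 (adjusted p = 0.274, edgeR). A p that misses the threshold does not show that the analog and the hormone left equal levels.

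Between the tumor types, 1 of 8 members was called, where 23.7% of all genes were called and 12.1% were called lower in FGF tumors. At an unadjusted p under 0.05 it was 2 of 8 members and 36.2% of genes, and no member (0 of 8) was free of overlap, against 5.7% of genes. Stat5b was lower in FGF tumors than in sgTrp53 + MYC tumors (-0.42, SE 0.10, interval -0.64 to -0.21, adjusted p = 0.00632, edgeR), and it passed in all 31 alternatives tried, with adjusted p between 6.99e-05 and 0.0498. Il6ra was at -0.73 (interval -1.29 to -0.16, adjusted p = 0.0576, edgeR) and passed in 9 of 31 alternatives, among them those without Aldafermin + MYC replicate 4 (-0.86), FGF19 + MYC replicate 5 (-0.82), sgTrp53 + MYC replicate 1 (-0.83) or sgTrp53 + MYC replicate 2 (-0.86). Cish was at -0.39 and passed only without Aldafermin + MYC replicate 3 (-0.95, adjusted p = 0.0266, edgeR). Stat3 was at 0.23 (interval -0.10 to 0.56) and Il6st at 0.03 (-0.46 to 0.51), so that differences over 1.5-fold lie outside these intervals. The intervals of Stat5a (-0.73 to 0.41), Socs2 (-1.48 to 0.52) and Socs3 (-1.02 to 0.82) were wider. All of these compare across the deposited tables.

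Per kilobase of exon the order of the members also differed between liver and tumors. Livers had Stat3 at 17.7 ± 1.33 and Stat5b at 16.7 ± 1.10 CPM per kilobase, whose ranges overlapped, followed by Il6st at 11.4 ± 1.74 and Il6ra at 7.72 ± 1.97 (SD, n = 5). In FGF19 + MYC tumors Stat5b came first at 12.1 ± 0.933, above Stat3 at 8.82 ± 1.46 without overlap, and Stat5a at 4.13 ± 0.890 and Il6st at 3.69 ± 0.961 overlapped (SD, n = 5). In Aldafermin + MYC tumors Stat5b at 11.1 ± 1.61 and Stat3 at 10.8 ± 2.03 overlapped, as they did in liver (SD, n = 5). In sgTrp53 + MYC tumors Stat5b at 15.5 ± 2.44 was above Stat3 at 8.33 ± 2.15 without overlap (SD, n = 5). Exon lengths are those of all annotated exons together, which can exceed the transcript that liver uses.

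Within the SOCS family, Socs3 stood higher relative to Socs2 in tumors than in livers, while both genes were themselves called lower than in liver. Per kilobase, the ratio of Socs3 to Socs2 was 0.645 to 2.62 in livers, 4.53 to 37.6 in Aldafermin + MYC tumors, 2.98 to 7.86 in FGF19 + MYC tumors and 3.25 to 16.2 in sgTrp53 + MYC tumors. All 15 tumors had a higher ratio than all 5 livers. Its size depends on the exon lengths taken, while this order does not. The ratio of Cish to Socs2 was 1.30 to 3.40 in livers and overlapped those of Aldafermin + MYC tumors (2.10 to 12.3) and sgTrp53 + MYC tumors (1.71 to 21.4), but not those of FGF19 + MYC tumors (5.32 to 10.1).

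Single tumors carried several high SOCS values at once. Aldafermin + MYC replicate 3 had the highest Socs1, Socs3 and Cish of its group, 4.27-fold, 4.25-fold and 6.89-fold above the median of the other 4 libraries. The sgTrp53 + MYC replicate 2 had the highest Socs1, Socs2 and Socs3, 7.28-fold, 4.12-fold and 3.68-fold above the others, and FGF19 + MYC replicate 5 had the highest Socs2, Socs3 and Cish, 3.40-fold, 1.52-fold and 2.18-fold above. The remaining gene did not follow in every case. Cish in sgTrp53 + MYC replicate 2 was the lowest of its group, at 5.92 CPM. Socs1 in FGF19 + MYC replicate 5, at 0.387 CPM, was below the median of its group, 0.447 CPM. In livers the 4 genes had their highest values in 4 different mice. Some of the 9 marker lists were also high in these tumors, and a different choice of lists is given for each. In Aldafermin + MYC replicate 3 the sum of 5 stellate and fibroblast markers was 1112 CPM, against 112 to 371 CPM in the other 4, and that of 6 macrophage and Kupffer markers 305 CPM, against 83.6 to 211 CPM. In sgTrp53 + MYC replicate 2 the sum of 4 biliary markers was 312 CPM, against 0.640 to 3.99 CPM. Its macrophage and Kupffer sum, 55.5 CPM, was the lowest of its group. FGF19 + MYC replicate 5 had the highest hepatocyte sum of all tumors, 27019 CPM, and the highest macrophage and Kupffer sum of its group, 221 CPM. The part of these cells in the SOCS values was not tested.

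**Figure D3:**
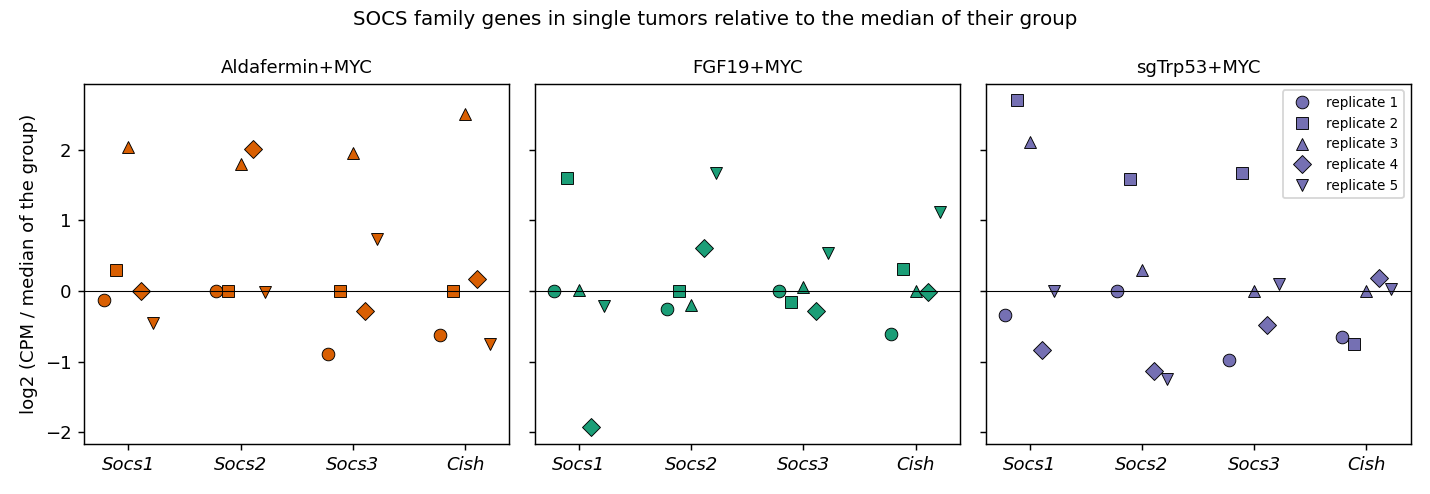
Log2 ratio of each tumor's CPM to the median of its group for the 4 SOCS family genes; shapes mark replicates 1 to 5. Aldafermin + MYC replicate 3, FGF19 + MYC replicate 5 and sgTrp53 + MYC replicate 2 are each the highest of their group in 3 of the 4 genes.

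The other genes of the pathway were read from 8 lists of 86 genes, of which 78 passed the filter. In FGF tumors 46 were lower and 9 higher than in liver, and in sgTrp53 + MYC tumors 46 lower and 8 higher, at medians of -1.24 and -1.36 beside 0.10 and 0.07 for all genes. Of all genes tested, 34.5% were lower and 39.2% higher in FGF tumors, and 33% lower and 36.9% higher in sgTrp53 + MYC tumors. The same shares stand beside the counts of each list below. With library size alone the counts of the 78 were 37 lower and 23 higher, and 32 lower and 21 higher. On that scale 76.9% and 77.9% of the calls among all genes were higher. Between tumor types 5 were higher and 6 lower in FGF tumors, against 11.6% and 12.1% of all genes. Between Aldafermin + MYC and FGF19 + MYC tumors none was called (0 of 78, with 0% of all genes). Of the genes named below, Il10rb, Ifngr1, Socs4, Socs6, Saa3, Lcn2, Timp1, Junb, Bcl3 and Cebpd were chosen in the liver comparisons after their values were seen.

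The ligand Lif, a gp130 cytokine, was at the counting floor in liver, with 0 to 2 counts per library. It was at 1.17, 1.41, 4.54, 1.5 and 1.40 CPM in Aldafermin + MYC tumors and at 2.57, 4.33, 5.75, 3.26 and 3.76 CPM in FGF19 + MYC tumors. Taking 3 counts in each liver as the floor, Lif was at least 18.98-fold higher in FGF tumors. In sgTrp53 + MYC tumors it was at 0.0659, 13.4, 0.300, 0.204 and 0.123 CPM, so that replicate 2 alone carried the mean. All 10 FGF tumors were above the other 4 sgTrp53 + MYC tumors. Accordingly the difference between tumor types was -0.01 with all libraries (adjusted p = 0.995, edgeR) and 3.97 without sgTrp53 + MYC replicate 2 (adjusted p = 0.000167, edgeR), a case examined after the values were seen. Ctf1, cardiotrophin 1, was lower than in liver in FGF tumors (-1.97) and sgTrp53 + MYC tumors (-3.06) and higher in FGF tumors than in sgTrp53 + MYC tumors (1.08, adjusted p = 0.00843, edgeR). Clcf1 passed in no comparison, and Il6, Il11, Osm and Cntf were below the filter, with Il6 at 0 to 1 count in livers and 0 to 19 counts in tumors.

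Of 20 receptors tested, 11 were lower and 2 higher in FGF tumors than in liver, and 13 lower and 2 higher in sgTrp53 + MYC tumors. With library size alone 8 were lower and 8 higher, and 10 lower and 3 higher. Ghr, the growth hormone receptor, was at 611 ± 92.6 CPM in livers, 72.7 ± 17.6 CPM in Aldafermin + MYC tumors, 73.8 ± 13.1 CPM in FGF19 + MYC tumors and 71.1 ± 16.5 CPM in sgTrp53 + MYC tumors (SD, n = 5). Its differences were -3.06 and -3.10. Lifr, the receptor for LIF that pairs with gp130, was lower by a log2 fold change of -3.79 in FGF tumors and -3.97 in sgTrp53 + MYC tumors. The interferon receptor chain Ifnar2 was at -1.52 and -1.49, and Il11ra1 at -1.64 and -2.28. The 2 higher ones were Il10rb (0.63 and 1.34) and Ifngr1 (0.43 and 0.38), chains of the IL-10 and interferon gamma receptors, and the second Ifngr1 call was lost in 12 of 20 fits with a library left out. Between tumor types Epor, the erythropoietin receptor (1.49), Il4ra, the IL-4 receptor chain (1.11), and Il11ra1 (0.65) were higher and Il10rb lower (-0.72) in FGF tumors.

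All 4 JAK kinases were lower than in liver in FGF tumors, Jak2 by -1.83, Tyk2 by -1.29, Jak3 by -0.99 and Jak1 by -0.71. In sgTrp53 + MYC tumors Jak2 (-1.40), Tyk2 (-1.05) and Jak1 (-0.97) passed and Jak3 (-0.81) did not. With library size alone 2 of 4 and 0 of 4 were called lower. Stat2 and Stat6 were lower in FGF tumors (-1.61 and -1.58) and in sgTrp53 + MYC tumors (-0.77 and -1.47). Both were still called in FGF tumors when scaled by library size, as was Stat6 but not Stat2 in sgTrp53 + MYC tumors. Stat2, which acts in interferon responses, was lower in FGF tumors than in sgTrp53 + MYC tumors (-0.84, adjusted p = 0.00825, edgeR), and Stat4 was below the filter.

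The other inhibitors did not share the fall of Socs2 and Cish. Of 13 tested, 3 were higher and 2 lower in each comparison with liver, with medians of 0.16 and 0.15 beside 0.10 and 0.07 for all genes. With library size alone 10 were higher and 2 lower in each. Ptpn2, a phosphatase of JAK and STAT proteins, was higher by 1.43 and 1.84, Socs6 by 1.01 and 1.13 and Socs4 by 0.33 and 0.63. Ptpn6 (-1.59 and -2.32) and Pias3 (-1.71 and -1.60) were lower. Without liver replicate 1 the call of Socs4 in FGF tumors was lost. Ptpn2 was lower in FGF tumors than in sgTrp53 + MYC tumors (-0.41), a call lost without sgTrp53 + MYC replicate 1.

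Most of the acute phase genes and of the growth hormone and STAT5 targets were lower than in liver. Of 10 immediate and growth targets of STAT3, 4 were lower in FGF tumors and 6 in sgTrp53 + MYC tumors. Of 17 acute phase genes known as STAT3 targets, 14 were lower and 2 higher in FGF tumors than in liver (median -3.10), and 12 lower and 1 higher in sgTrp53 + MYC tumors (median -2.71). With library size alone these were 14 and 2, and 11 and 3. Fga, Fgb and Fgg, the fibrinogen chains, were at -2.54, -2.47 and -2.61 in FGF tumors and at -2.82, -2.56 and -2.71 in sgTrp53 + MYC tumors. Saa3, which unlike these is made mainly outside hepatocytes, was higher (1.45 and 3.22), and Lcn2 was higher in FGF tumors (1.44), a call lost in 6 of 20 fits with a library left out. Hepatocyte markers fell alongside, at medians of -3.25 and -3.69, and their part was not tested. Between tumor types Hpx, the heme carrier hemopexin, was higher (1.34) and Saa3 (-1.78) and Il1rn, the IL-1 receptor antagonist (-2.09), were lower in FGF tumors. The Saa3 call was lost without sgTrp53 + MYC replicate 5, and the Il1rn call without sgTrp53 + MYC replicate 2. Saa1 and Saa2, and Orm1 and Orm2, are near-identical copies whose counts are uncertain.

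Of 10 immediate and growth targets of STAT3, 4 were lower and 1 higher in FGF tumors and 6 lower and 1 higher in sgTrp53 + MYC tumors. With library size alone 2 were lower and 2 higher, and 1 lower and 2 higher. The calls of Bcl2l1 and Cebpd in both and of Cebpb, Bcl3 and Junb in sgTrp53 + MYC tumors were then lost. With a library left out, the sgTrp53 + MYC call of Junb was kept in 6 of 20 fits and that of Bcl3 in 14. Cebpb was at -1.78 and -1.28, Ccnd1 at -2.14 and -2.93 and Bcl2l1 at -0.96 and -1.46. Timp1, an inhibitor of metalloproteinases, was the higher one (3.31 and 3.64). Mcl1, a survival gene of the BCL2 family, was lower in FGF tumors than in sgTrp53 + MYC tumors (-0.24), and 19 of 20 fits with a library left out lost that call. Of 8 growth hormone and STAT5 targets, 7 were lower in FGF tumors and 6 in sgTrp53 + MYC tumors, and with library size alone 6 and 6. The list was not split into genes that growth hormone raises and genes that it lowers, so these counts give no direction of the response. Among the 7, the call of Bcl6 was kept in only 8 of 20 fits with a library left out. Igf1, the main mediator of growth hormone, was at 785 ± 81.9 CPM in livers, 35.9 ± 27.7 CPM in Aldafermin + MYC tumors, 25.7 ± 18.99 CPM in FGF19 + MYC tumors and 19.9 ± 13.1 CPM in sgTrp53 + MYC tumors (SD, n = 5), differences of -4.69 and -5.30. Igfals, which carries IGF1 in plasma, was at -4.97 and -5.51. Within this list none was called between tumor types.

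**Figure D4:**
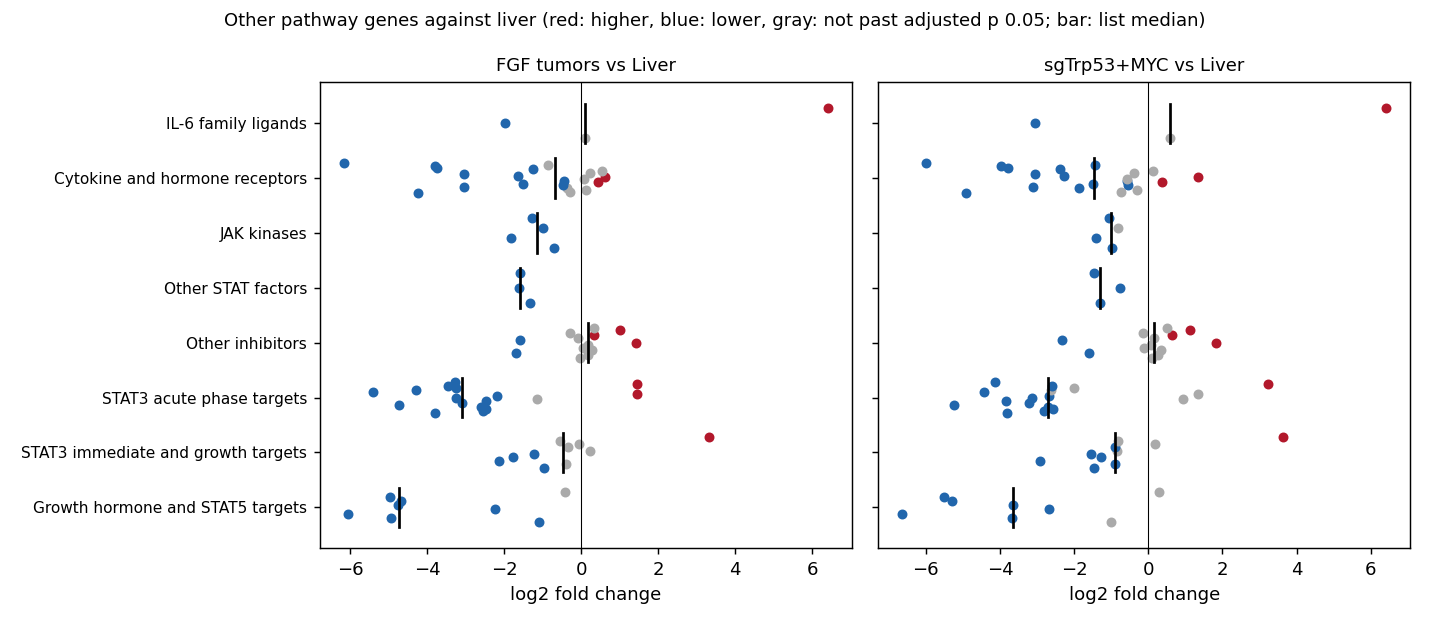
Log2 fold change against liver of the 78 tested genes in 8 pathway lists, one point per gene, with the list median as a bar; red is higher and blue lower at an adjusted p under 0.05. Acute phase and growth hormone targets lie farthest left, and the other inhibitors lie around 0; the point of Lif near 6.4 has a liver group at the counting floor and is no estimate of size.

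The members were also set beside all tested genes averaging 10 CPM or more by the correlation of log2 CPM over the 20 libraries, which share group differences, depth and tissue makeup. The nearest genes were Ammecr1l for Il6st (r = 0.986), Kat2b for Il6ra (0.969), Shc1 for Stat3 (0.955), Arhgap23 for Cish (0.926), Tspyl1 for Stat5b (0.918), Uevld for Stat5a (0.906) and Jak3 for Socs3 (0.805). With group means removed these were 0.943, 0.829, 0.934, 0.759, 0.706, 0.928 and 0.610 in the same order. Between members and with group means removed, Stat3 and Il6st had 0.729, Cish and Il6st 0.703, Il6ra and Il6st 0.686 and Stat5a and Stat5b 0.620, while Stat5b and Socs2 had -0.381. These are descriptions over 20 libraries.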

How the data were processed

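RNA was sequenced from 15 liver tumors and 5 control livers, each from its own mouse, after poly(A) selection with a stranded kit. The authors aligned reads to the mouse genome (Mm39) with HISAT2, counted them per RefSeq gene with htseq-count and deposited the raw counts in 2 tables. The base caller in the submitters' processing notes is bcl2fastq 2.20.0.422. Versions of the aligner and the counter and the strand setting are not given in the sources used here. The 5 summary lines of the counter were left out of library sizes and tests.

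Counts were tested with edgeR 4.0.16 in R 4.3.3 (limma 3.58.1) by the quasi-likelihood test, with TMM scaling and 1 model of the 4 groups, restricted to genes that reached 1 CPM in 5 or more libraries. Adjusted p-values are Benjamini-Hochberg values over all 14333 genes tested. Standard errors and 95% intervals come from the same model. The 4 comparisons were the analog group (Aldafermin + MYC) against the hormone group (FGF19 + MYC), the mean of these against sgTrp53 + MYC and against liver, and sgTrp53 + MYC against liver. They share libraries. The procedure was tested on simulated data in which few genes differed from liver, as many up as down. In the real comparisons with liver most genes were called, so the simulation does not check their scaling.

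The alternatives were the DESeq2 1.42.0 test, edgeR's likelihood ratio test, DESeq2 size factors, library size alone, no filter, a filter of 10 counts, only the compared groups, each FGF group alone, the replicate number as a block, and each library left out. Offsets for GC content and length were added after seeing the data. Genes named from the pathway lists were at most 3 per list and comparison with the smallest adjusted p, plus the JAK kinases, the other STAT factors, the IL-6 family ligands and Ghr. Junb, Bcl3 and Cebpd were added because calls of them were lost. The members and lists were chosen with earlier results of these data known. Some genes that this rule names are not reported here.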

Additional observations from a re-analysis of the deposited data

Results flagged for a closer look

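In 36 groups of 5 values, 1 library stood apart from the other 4 in 7 cases. For independent values with a normal spread the rule gives about 1 in 20, or 1.8. CPM values of genes with few counts need not have that spread, and the groups share the same 20 libraries. The 7 cases are therefore no measure of an excess over chance. Stat3 in liver replicate 5 was at 155 CPM, below the 182 to 188 CPM of the other livers. Il6st in FGF19 + MYC replicate 1 was at 31.3 CPM, against 61.2 to 69.6 CPM. The other 5 were high values of SOCS genes. Socs1 was at 1.73 CPM in Aldafermin + MYC replicate 3 (the others 0.309 to 0.521) and at 1.35 CPM in FGF19 + MYC replicate 2 (the others 0.117 to 0.449). Cish was at 17.9 CPM in Aldafermin + MYC replicate 3 (the others 1.88 to 3.54). Socs2 was at 5.9 CPM in FGF19 + MYC replicate 5 (the others 1.56 to 2.82), and Socs3 at 12.9 CPM in sgTrp53 + MYC replicate 2 (the others 2.08 to 4.34).

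For Stat5b the effects against liver differed between the tumor types. The test of that difference is the comparison of FGF tumors with sgTrp53 + MYC tumors, at a log2 fold change of -0.42 (adjusted p = 0.00632, edgeR), which crosses the deposited tables.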

How the results depend on the processing

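The calls of Il6ra, Il6st and Socs2 against liver, and of Stat5b between tumor types, kept their direction and passed in every alternative run. Between Aldafermin + MYC and FGF19 + MYC tumors no alternative called a member, while the count of all genes called, 0, became 96 with DESeq2, 59 with the likelihood ratio test, 2 with DESeq2 size factors and 0 to 29 with a library left out, and Socs2 ranged from -0.79 to 0.06. Between tumor types the members called went from 1 to 2 with DESeq2, the likelihood ratio test, DESeq2 size factors, no filter and GC and length offsets, and were 1 to 2 with a library left out. All genes called fell from 3399 to 2258 with only FGF19 + MYC tumors. Near 0 in that comparison, Il6st was at -0.01 with DESeq2, DESeq2 size factors or library size, -0.09 with no filter, -0.06 with only Aldafermin + MYC tumors and -0.09 to 0.15 with a library left out. Socs3 was at 0.63 with only Aldafermin + MYC tumors and -0.42 to 0.55 with a library left out, Socs2 at -0.72 to 0.17, and Stat5a at 0.06 with only FGF19 + MYC tumors. Lif was at 0.48 with only FGF19 + MYC tumors and -0.32 to 3.97 with a library left out. Against liver, library size alone gave 0.00 for Stat3 and 0.33 for Stat5b in FGF tumors and 0.79 for Stat5b in sgTrp53 + MYC tumors. Stat5a in FGF tumors was at -0.07 with only Aldafermin + MYC tumors. Stat5b in sgTrp53 + MYC tumors was at 0.18 with no filter, 0.01 with only the compared groups, 0.10 with GC and length offsets and -0.17 to 0.01 with a library left out. Except where the alternative is itself another scaling, the cause was not tested.

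The replicate numbers only name mice. Of 30 same-numbered pairs 7 correlated above 0.1, at a median of -0.04, and 0 of 20 libraries correlated best with its own number. With the replicate block no call of a member changed, Socs3 between tumor types was at 0.04 and Lif at 2.39 (adjusted p = 0.132, edgeR), and the genes called were 0, 3120, 10544 and 9981 in the order of the comparisons given above, against 0, 3399, 10561 and 10019 without it. Socs1 rests on 4 to 214 counts per library and did not pass the filter.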
